A study of Mus musculus with 6 samples.

Results

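The genes described here are 10 genes of the epithelial programme: the surface genes Epcam and Prom2, the transcription factor genes Grhl1, Grhl2, Ovol1, Ovol2, Elf3 and Ehf, the coactivator gene Cited4 and the adaptor gene Grb7. They are 10 of 54356 genes summed from the deposited transcript tables, and 8 of them passed the filter on low counts, which left 17852 genes for testing. Of these 8, only Grhl1, Cited4 and Grb7 reached the count minimum in all 3 ctrl libraries, so the other 5 passed through their cold libraries. They were picked by name with their difference between cold and control animals, and the order of the 6 libraries, already known. Those values are therefore given as a description, with no p-value, and nothing is read from how many of the 10 genes pass a threshold. The tissue was eWAT (epididymal white fat, a visceral depot along the epididymis) of male wild type C57BL/6N mice aged 20 weeks, whose poly(A) RNA was sequenced with paired reads of 50 nt. The cold group is mouse 7, mouse 12 and mouse 16 and the control group, labelled ctrl, is mouse 5, mouse 6 and mouse 10, with 1 library per mouse (cold 7, ctrl 5 and so on). The protocol text is the same for all 6 and gives single housing at 4 °C for 24 h before dissection, and general housing at 22 to 24 °C. No source used here says at which temperature, or whether singly, the ctrl mice were kept during that period. The labels number the mice, so p-values rest on the spread between 3 animals per group.

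Epithelial cells keep their identity through a small circuit of transcription factors. Grainyhead-like and epithelium-specific ETS factors switch on genes of cell junctions and of the apical surface, and OVO-like zinc finger factors keep the mesenchymal factors ZEB and SNAI in check. EPCAM, the epithelial cell adhesion molecule, is the usual surface marker of simple epithelia. Fat cells, stromal cells and blood vessel cells of adipose tissue are mesenchymal or endothelial and are not known for this programme. The fat pad is lined by mesothelium, and the ducts of the male reproductive tract next to the eWAT are lined by epithelium. Which cells gave the reads of these genes was not tested.

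Total estimated counts ran from 19735167 to 28608052 per library. Adipocyte markers summed to between 34333 and 38836 CPM (estimated counts scaled to TMM-adjusted library size) in the 6 libraries, and none of the 8 was at 0, so the label of fat tissue held. These markers do not test which depot it was. Some libraries stood apart in genes of the reproductive tract. Markers of epididymal principal cells summed to 186 CPM in cold 7 and to 0.565 to 1.50 CPM in the other libraries. Seminal vesicle markers summed to 182 CPM in ctrl 10 and to 0.0447 to 1.19 CPM elsewhere. Spermatid markers summed to 48.8 CPM in cold 7, 45.0 CPM in cold 12 and 0.0413 to 3.71 CPM elsewhere. Values with and without ctrl 10 and cold 7 follow for the 8 tested genes. In bulk tissue, more cells of a type and more RNA per cell cannot be told apart.

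Of the 10 genes, 8 were higher in every cold library than in every ctrl library. Grhl1 lay the other way, with every cold library below every ctrl library, and Ovol1 overlapped between the groups. Among the 17852 tested genes, 12.7% had all cold libraries above all ctrl libraries and 11.0% had them all below. By edgeR's quasi-likelihood test, 4 of the 8 tested genes (Prom2, Grhl2, Cited4 and Grb7) were called higher, against 2.32% of all tested genes, and none was called lower, against 0.566%. DESeq2 called 7 higher, against 5.15% of the genes it tested, and Grhl1 lower. Nothing is read from these counts, since the genes were chosen from this contrast. The median log2 fold change of the 8 was 3.48, and that of all tested genes was -0.01. Ctrl 5 was the highest ctrl library in 8 of the 10 genes, and cold 7 the lowest cold library in 7. In 6 genes (Epcam, Prom2, Elf3, Ehf, Cited4 and Grb7) both held together with a full separation of the groups, a pattern seen in 4.98% of tested genes.

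**Figure D1:**
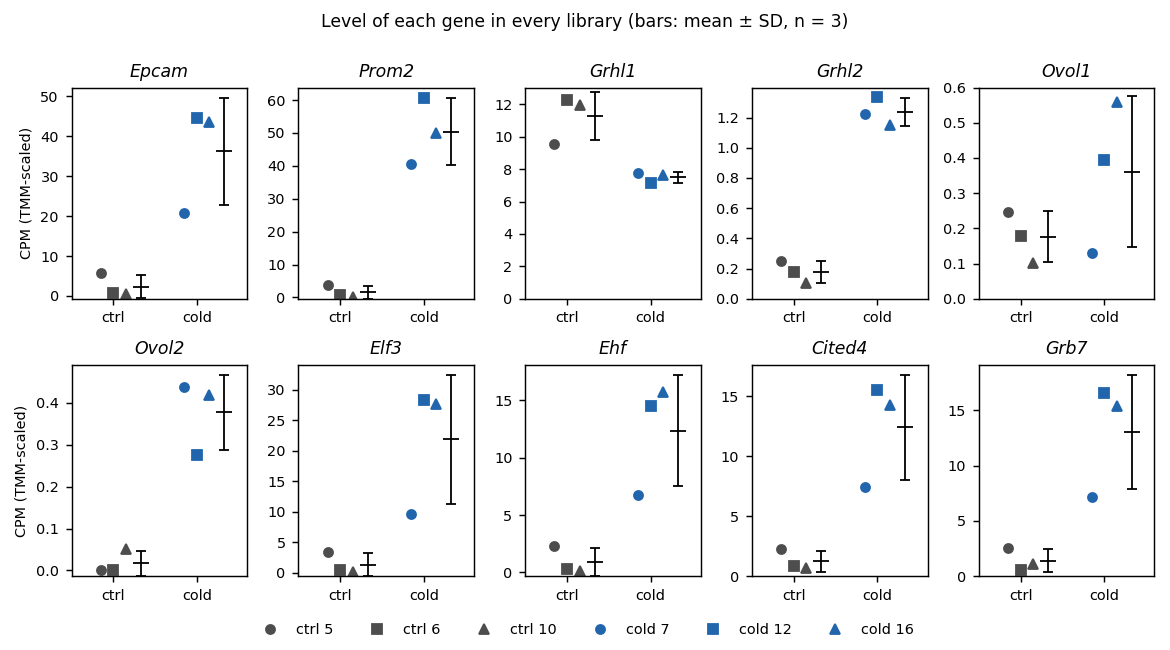
Each panel plots CPM of 1 gene in the 6 libraries (grey: ctrl, blue: cold, symbols as in the legend), with mean ± SD of 3 libraries in black and vertical axes that differ between panels. Epcam, Prom2, Elf3, Ehf, Cited4 and Grb7 share the order cold 12 and cold 16, then cold 7, then ctrl 5, then the other ctrl libraries, whereas Grhl1 is lower in the cold and Ovol1 overlaps.

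Epcam and Prom2 are the surface genes of the set. EPCAM holds neighbouring epithelial cells together, and prominin-2, encoded by Prom2, is a cholesterol-binding glycoprotein of membrane protrusions. The start regions of both genes are shown because both genes had the same library order. They are the 250 bases before the start annotated by RefSeq in GRCm38.p6, written on the gene's own strand, 5′ to 3′, with capitals for the letters AACCGG on either strand or ACCGGT, parts of the Grainyhead-like consensus AACCGGTT. The Epcam region is chr17:87635729-87635978 on the plus strand and the Prom2 region is chr2:127541418-127541667 on the minus strand.
Epcam: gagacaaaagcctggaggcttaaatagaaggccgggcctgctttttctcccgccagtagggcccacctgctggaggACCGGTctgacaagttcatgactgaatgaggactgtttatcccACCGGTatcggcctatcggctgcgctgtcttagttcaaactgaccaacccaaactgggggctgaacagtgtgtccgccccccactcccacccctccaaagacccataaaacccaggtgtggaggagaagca
Prom2: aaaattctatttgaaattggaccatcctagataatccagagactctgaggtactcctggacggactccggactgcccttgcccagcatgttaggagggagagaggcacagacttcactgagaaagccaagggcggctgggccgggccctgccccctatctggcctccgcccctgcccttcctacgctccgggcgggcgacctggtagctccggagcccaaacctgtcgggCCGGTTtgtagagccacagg

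Epcam (chromosome 17, 87635979 to 87651129, plus strand) stood at 5.66, 0.849 and 0.359 CPM in ctrl 5, ctrl 6 and ctrl 10, from 137, 19 and 7 estimated counts. In cold 7, cold 12 and cold 16 it stood at 20.8, 44.5 and 43.6 CPM. Cold 12 and cold 16 lay close together, cold 7 was at 47.3% of their mean, and ctrl 5 was at 15.6% of the cold mean. The group means were 2.29 ± 2.93 CPM in the ctrl and 36.3 ± 13.4 CPM in the cold libraries (SD, n = 3), and the log2 fold change was 3.93 (SE 0.89). Without ctrl 5 the log2 fold change was 5.87, and without ctrl 10 and cold 7 it was 3.73. Of 5 annotated transcripts, Epcam-204 took 96.7% of the counts over all libraries. That transcript starts inside the gene, at 87636682, so the bases printed above lie before the start of Epcam-201, which took 2.32, 1.82 and 4.76% of Epcam counts in cold 7, cold 12 and cold 16 and 0 in the ctrl libraries.

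Prom2 (chromosome 2, 127526473 to 127541467, minus strand) stood at 3.76, 0.805 and 0.154 CPM in ctrl 5, ctrl 6 and ctrl 10. It stood at 40.5, 60.8 and 50.1 CPM in cold 7, cold 12 and cold 16. The log2 fold change was 4.93 (SE 0.74), 6.65 without ctrl 5 and 4.57 without ctrl 10 and cold 7. Cold 7 was at 73.1% of the mean of cold 12 and cold 16, nearer to them than in Epcam. The reads of Prom2 were split between Prom2-201 and Prom2-202, with Prom2-202 at 65.6, 44.4 and 53.7% of counts in cold 7, cold 12 and cold 16. These transcripts overlap for most of their length, so their shares depend on how Salmon divided shared reads, and with 18 and 3 counts the shares of ctrl 6 and ctrl 10 carry no weight. Prom2-201 is annotated to start at 127541467, inside the bases printed above and upstream of the capitals.

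Elf3 and Ehf encode epithelium-specific ETS factors, which bind GGAA sites and drive differentiation genes of glandular and mucosal epithelia. The Elf3 start region (chr1:135258473-135258722, minus strand, same build and marking) is shown because it holds 1 of the AACCGG matches. The transcript Elf3-201 is annotated to start at 135258568, inside this region and upstream of the capitals.
Elf3: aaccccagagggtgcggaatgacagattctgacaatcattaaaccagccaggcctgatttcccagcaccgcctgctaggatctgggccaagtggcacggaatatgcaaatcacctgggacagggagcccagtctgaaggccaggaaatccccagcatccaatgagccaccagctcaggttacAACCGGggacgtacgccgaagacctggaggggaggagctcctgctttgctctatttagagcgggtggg

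Elf3 (chromosome 1, 135253575 to 135258568) stood at 3.43, 0.358 and 0.103 CPM in ctrl 5, ctrl 6 and ctrl 10 and at 9.67, 28.3 and 27.6 CPM in cold 7, cold 12 and cold 16. Cold 7 was at 34.6% of the mean of the other cold libraries, the lowest such share among the tested genes. The log2 fold change was 4.01 (SE 1.05), with 6.50 without ctrl 5 and 3.85 without ctrl 10 and cold 7. Elf3-202 led in all 6 libraries, and the longer Elf3-201 took 23.5, 39.0 and 19.5% of counts in cold 7, cold 12 and cold 16. Ehf (chromosome 2, 103263433 to 103303278) stood at 2.31, 0.313 and 0.103 CPM in ctrl 5, ctrl 6 and ctrl 10 and at 6.78, 14.5 and 15.7 CPM in cold 7, cold 12 and cold 16. Its log2 fold change was 3.70 (SE 0.93), 5.83 without ctrl 5 and 3.50 without ctrl 10 and cold 7. Of its 8 annotated transcripts, Ehf-201 took 98.1% of the counts. Both ETS genes separated the groups and followed the library order of Epcam, apart from the near-equal cold 12 and cold 16. Per length, Elf3 was the more abundant, at 16.4 ± 8.06 TPM (the deposited level per transcript length) in the cold against 4.47 ± 1.51 TPM for Ehf (SD, n = 3 each).

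The Grainyhead-like genes Grhl1 and Grhl2 lay in opposite directions. GRHL2 is an activator of E-cadherin and claudin genes, and GRHL1 is best known for desmosomal genes of the epidermis. Grhl2 (chromosome 15, 37233036 to 37363569) stood at 0.248, 0.179 and 0.103 CPM in ctrl 5, ctrl 6 and ctrl 10, from 6, 4 and 2 counts. It stood at 1.23, 1.34 and 1.15 CPM in cold 7, cold 12 and cold 16, from 28, 34 and 33 counts. The log2 fold change was 2.75 (SE 0.39), and cold 7 was level with the other cold libraries, at 98.5% of their mean. The gene passed the count filter through its cold libraries alone. Part of its reads came from intron sequence: Grhl2-206, a single-exon transcript annotated as a retained intron, held 7.11 of 12.1 counts over the ctrl libraries (58.7%) and 23.1 of 95.2 over the cold libraries (24.3%). Protein-coding transcripts held 3.00 counts in the ctrl libraries together and 51.5 in the cold, so the coding reads were also higher in the cold.

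Grhl1 (chromosome 12, 24572283 to 24617391) was, by CPM, the most abundant of the 10 genes in the ctrl group. It stood at 9.58, 12.3 and 12.0 CPM in ctrl 5, ctrl 6 and ctrl 10 and at 7.79, 7.12 and 7.61 CPM in cold 7, cold 12 and cold 16. Its groups did not overlap, and the group means were 11.3 ± 1.48 CPM in the ctrl and 7.51 ± 0.348 CPM in the cold libraries (SD, n = 3), and the log2 fold change was -0.59 (SE 0.14). The value was -0.68 without ctrl 5 and -0.57 without ctrl 10 and cold 7. Among the 10 genes it was the only one lower in every cold library, with more reads in ctrl 6 and ctrl 10, where Epcam had 19 and 7 counts, than in any cold library.

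Grhl1 has a pair of starts in RefSeq, 8432 bases apart. The data bear on both because the reads were split between their transcripts. The upstream region is chr12:24572037-24572286 and the downstream region chr12:24580469-24580718, both on the plus strand. Neither holds the capitalised letters.
Grhl1 upstream: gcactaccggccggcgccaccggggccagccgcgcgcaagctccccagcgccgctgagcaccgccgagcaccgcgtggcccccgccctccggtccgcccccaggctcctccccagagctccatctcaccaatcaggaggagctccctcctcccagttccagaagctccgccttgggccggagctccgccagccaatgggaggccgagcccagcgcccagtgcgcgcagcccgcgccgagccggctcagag
Grhl1 downstream: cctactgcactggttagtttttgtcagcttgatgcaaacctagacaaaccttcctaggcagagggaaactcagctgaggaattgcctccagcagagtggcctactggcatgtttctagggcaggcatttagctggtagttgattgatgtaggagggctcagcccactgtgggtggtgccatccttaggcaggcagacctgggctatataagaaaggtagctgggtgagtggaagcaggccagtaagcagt

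The upstream Grhl1 region is rich in CpG, with 35 CG pairs and 75.3% G or C in the RefSeq window of 300 bases, whereas the downstream region has 0 CG pairs and 51.3%. Over all promoters of this length the medians were 7 pairs and 52.7%. Transcripts from the upstream start stood at 7.32, 6.52 and 5.86 CPM in ctrl 5, ctrl 6 and ctrl 10 and at 4.53, 6.28 and 5.09 CPM in cold 7, cold 12 and cold 16. Their groups overlapped. Those from the downstream start stood at 2.26, 5.78 and 6.11 CPM in ctrl 5, ctrl 6 and ctrl 10 and at 3.26, 0.835 and 2.53 CPM in the cold libraries, and also overlapped, through ctrl 5. On group means, the downstream transcripts differed more (4.72 ± 2.13 against 2.21 ± 1.24 CPM) than the upstream ones (6.57 ± 0.732 against 5.30 ± 0.897 CPM; SD, n = 3 each). No test was made of these shares, and most exons are common to both, so they rest on Salmon's division of shared reads.

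Ovol1 and Ovol2, which encode zinc finger repressors of mesenchymal genes, were at the limit of detection. Both fell below the count filter. Ovol2 (chromosome 2, 144305175 to 144332146) had 0, 0 and 1 estimated counts in ctrl 5, ctrl 6 and ctrl 10 and 10, 7 and 12 in cold 7, cold 12 and cold 16. The ratio of summed counts per library size was 25.3, with a 95% exact interval of 4.19 to 1033 that covers counting error only. By CPM, cold 7 and cold 16 were close together (0.438 and 0.419) and cold 12 stood at 0.275. These counts are too few to rank the cold libraries. Ovol1 (chromosome 19, 5549136 to 5560646) had 6, 4 and 2 counts in the ctrl libraries and 3, 10 and 16 in the cold, with cold 7 below ctrl 5 and ctrl 6. Its ratio was 2.11, with an interval of 1.04 to 4.53 for counting error alone. These intervals pool the reads of each group and leave out the spread between animals, so nothing is read from them.

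Cited4 and Grb7 encode proteins that act through binding partners. CITED4 is a coactivator that bridges AP-2 factors to the acetyltransferases CBP and p300, and GRB7 is an SH2 adaptor that binds activated ERBB and other receptors. The Cited4 start region (chr4:120666313-120666562, plus strand) is shown because it holds the one TATAAA among these windows, and it holds none of the capitalised letters.
Cited4: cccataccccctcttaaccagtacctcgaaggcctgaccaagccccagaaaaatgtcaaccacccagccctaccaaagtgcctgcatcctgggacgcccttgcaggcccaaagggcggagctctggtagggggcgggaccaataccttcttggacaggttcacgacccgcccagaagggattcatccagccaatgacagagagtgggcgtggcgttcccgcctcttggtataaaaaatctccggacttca

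Cited4 (chromosome 4, 120666572 to 120667820, 1 transcript) stood at 2.27, 0.849 and 0.667 CPM in ctrl 5, ctrl 6 and ctrl 10 and at 7.40, 15.5 and 14.3 CPM in cold 7, cold 12 and cold 16. The log2 fold change was 3.27 (SE 0.51), 4.02 without ctrl 5 and 3.24 without ctrl 10 and cold 7. Grb7 (chromosome 11, 98446394 to 98455373) stood at 2.56, 0.581 and 1.13 CPM in ctrl 5, ctrl 6 and ctrl 10 and at 7.13, 16.6 and 15.4 CPM in the same cold libraries. Its log2 fold change was 3.18 (SE 0.58), 3.95 without ctrl 5 and 3.32 without ctrl 10 and cold 7. Both genes separated the groups, with cold 7 at 49.7% of the mean of the other cold libraries in Cited4 and at 44.6% in Grb7. Transcripts annotated as retained introns took 26.3, 26.0 and 17.7% of Grb7 counts in cold 7, cold 12 and cold 16, and 9.72 of 97.0 counts (10.0%) over the ctrl libraries. Per library this was 8.09, 0 and 21.4% in ctrl 5, ctrl 6 and ctrl 10, so the groups overlapped. Most Grb7 reads, 78.5% over all libraries, were assigned to the coding transcript Grb7-201.

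**Figure D2:**
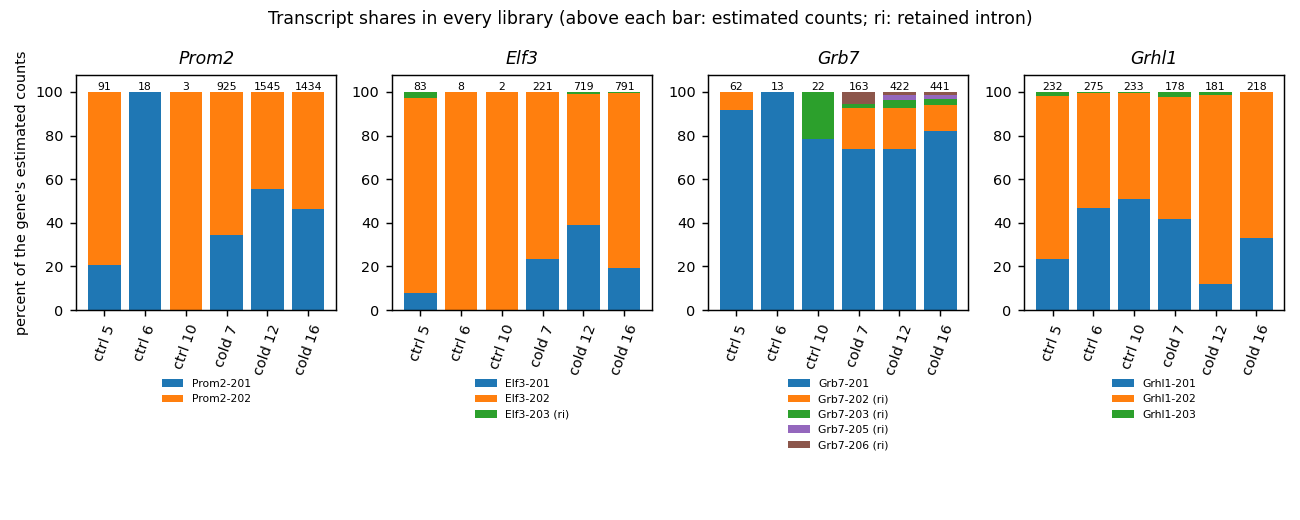
Stacked bars give the percent of estimated counts of Prom2, Elf3, Grb7 and Grhl1 assigned to each transcript in each library, with the gene's estimated counts above the bar. Bars that rest on few counts, such as ctrl 10 for Prom2 (3) and Elf3 (2), carry no weight, and the Grhl1 split varies within both groups.

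Start regions of 6 of the 10 genes were in the RefSeq table, Grhl1 with its pair, and 7 windows of 300 bases (250 before and 50 after the start) were searched on both strands. The full Grainyhead-like site AACCGGTT was in none of the 7 and in 0.146% of 32851 windows of this length. AACCGG, which the full site contains, was in the windows of Elf3 and Prom2 and in 6.83% of all windows. Each of these matches lies before the RefSeq start but after the annotated start of another transcript, Elf3-201 or Prom2-201. ACCGGT, the centre of the full site, was in the Epcam window at a pair of places, 174 and 131 bases before the start, and in 2.33% of all windows. The ZEB and SNAI E-box CAGGTG was in the Epcam and Elf3 windows and in 20.2% of all. The ETS core CGGAAG (16.9% of all windows) and the OVO-like core CCGTTA (2.76%) were in none of the 7. TATAAA was in the Cited4 window and in 13.6% of all. The motifs were chosen with the sequences in view, and a match is a run of letters and no evidence of binding.

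Ranked by TPM, which allows genes to be compared per length, Epcam led in the cold at 31.0 ± 11.1 TPM, followed by Prom2 (17.1 ± 3.33), Elf3 (16.4 ± 8.06), Cited4 (13.9 ± 5.18) and Grb7 (9.08 ± 3.93). The libraries of neighbours in that order overlapped. Below them came Ehf (4.47 ± 1.51), Grhl1 (3.13 ± 0.230), Grhl2 (0.475 ± 0.0262), Ovol2 (0.371 ± 0.109) and Ovol1 (0.179 ± 0.0984; SD, n = 3 for all), and here only Grhl1 and Grhl2 did not overlap as neighbours. In the ctrl group Grhl1 led on the mean, at 4.90 ± 0.644 TPM, and every other gene had a mean at or below the 2.03 ± 2.62 TPM of Epcam. In ctrl 5, however, Epcam was above Grhl1, at 5.04 against 4.15 TPM. The transcription factors thus covered a wide range of levels, with Elf3 the highest of them in the cold and the OVO-like genes the lowest.

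The genes kept different ratios to one another. In ctrl 6 and ctrl 10, Epcam had 19 and 7 counts, Ehf 7 and 2 and Elf3 8 and 2, so ratios there carry little weight. In TPM, Ehf was 13.1 to 16.6% of Epcam in the cold libraries and ctrl 5, and 14.9 and 11.5% in ctrl 6 and ctrl 10. Elf3 ran from 25.0 to 59.9% of Epcam, with cold 7 at 39.0% and cold 12 and cold 16 at 56.6 and 56.0%. Cited4 was 43.0, 44.3 and 46.1% of Epcam in cold 7, cold 12 and cold 16 and 48.7% in ctrl 5, but 122 and 235% in ctrl 6 and ctrl 10. Grb7 was likewise 25.3 to 33.1% in the cold libraries and ctrl 5 and 50.0 and 317% in ctrl 6 and ctrl 10, where Epcam had 19 and 7 counts. Prom2 was 77.2, 53.5 and 45.6% of Epcam in cold 7, cold 12 and cold 16 and 18.0 to 34.7% in the ctrl libraries. Its ratio was thus higher in every cold library than in every ctrl library. With 18 and 3 counts of Prom2 in ctrl 6 and ctrl 10, the ctrl side rests mainly on ctrl 5 (27.7%). Over the 6 libraries, Pearson's r between pairs of log2 CPM profiles ran from 0.937 to 0.999 among the 7 tested genes other than Grhl1 (21 pairs). Grhl1 had r from -0.987 to -0.956 with those 7. These values are a description over 6 points that share library and depth and separate by group.

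Paralogues were compared to see how far the pattern runs through each family. None of the 10 tested paralogues was called in either direction by edgeR's quasi-likelihood test (median log2 fold change 0.03), with an unadjusted p under 0.05 for 2 of them, and 6 of 16 fell below the filter. DESeq2 called 2, Prom1 higher and Cited2 lower. Prom1, the stem cell and epithelial prominin, was measured at 14.3, 5.94 and 3.80 CPM in ctrl 5, ctrl 6 and ctrl 10 and 36.6, 75.4 and 68.6 CPM in cold 7, cold 12 and cold 16. Its difference was 2.89 in log2 units (SE 0.56) with an adjusted p of 0.0691 by edgeR, and 0.0236 without ctrl 5. Its libraries stood in the order of Epcam. Grhl3 had 0 counts in all ctrl libraries, which allows up to 3 counts in each, and 1, 6 and 3 in the cold. Ovol3, Spdef, Elf5 and Cited1 had at most 15 counts in any library.

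The tested relatives other than Prom1 lay between -0.58 and 0.46. Tfcp2, Tfcp2l1 and Ubp1 of the CP2 branch stood at 0.01, 0.46 and 0.06 on the log2 scale. The ETS genes Elf1, Elf2 and Elf4, known from blood cells and other tissues, stood at 0.06, -0.05 and -0.30. Grb10 and Grb14, adaptors of the insulin receptor, stood at 0.10 and -0.20. Cited2 stood at -0.58 (SE 0.15, adjusted p = 0.0866 by edgeR), with every cold library (50.9 to 62.9 CPM) below every ctrl library (65.9 to 95.3 CPM), on the opposite side of 0 from Cited4. Without ctrl 10 and cold 7 its adjusted p was 0.00773 by edgeR. Whether a gene and its paralogue differ in response was not tested.

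**Figure D3:**
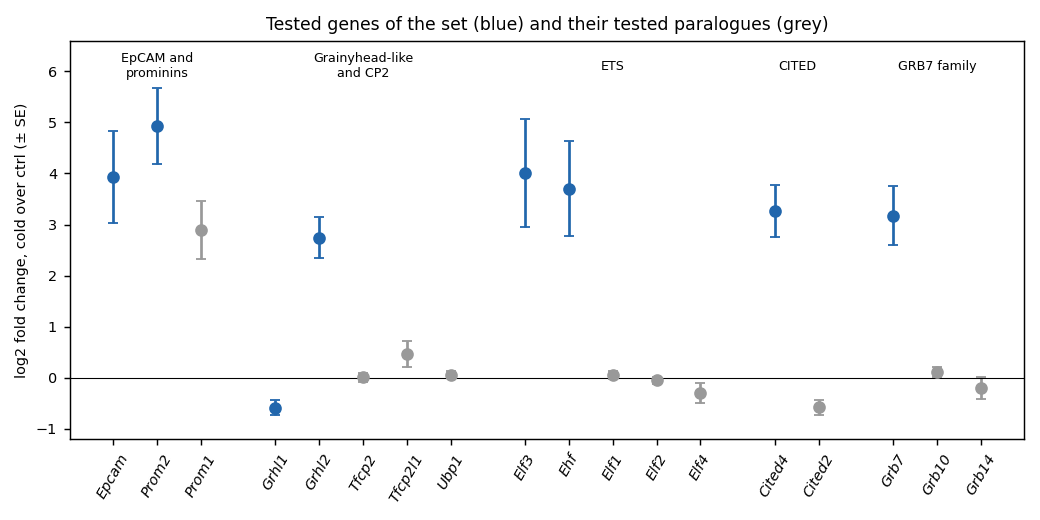
Points give the log2 fold change of cold over ctrl (± SE, 3 libraries per group) for the 8 tested genes of the set in blue and their 10 tested paralogues in grey, by family. Apart from Prom1 at 2.89, the grey points lie between -0.58 and 0.46, and Grhl1 at -0.59 is the one blue point below 0.

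Other epithelial genes were drawn from lists chosen with earlier results of these data known, so their counts are no independent support. Of 13 further epithelial regulators, 10 were tested, 2 were called higher and none lower (median log2 fold change 1.81). Among them the splicing factor gene Esrp2 rose by 2.26 (SE 0.39, adjusted p = 0.033 by edgeR). Once transcript length was entered as an offset, Esrp2 was no longer called (1.80, adjusted p = 0.187 by edgeR). Its paralogue Esrp1 stood at 2.39 (adjusted p = 0.0955 by edgeR), not past the threshold. Without ctrl 10 and cold 7 the adjusted p of Esrp1 was 0.0093 by edgeR. Of 18 effector genes of junctions, trafficking and surface proteases, all tested, 8 rose and 1 fell (median 2.69). Rab25, a GTPase of apical recycling, rose by 2.66, the protease inhibitor gene Spint1 by 2.87, the membrane protease gene Prss8 by 3.54 and the claudin gene Cldn4 by 3.39 on the log2 scale, with adjusted p from 0.0238 to 0.0296 by edgeR. Cldn4 had 2, 1 and 1 counts in ctrl 5, ctrl 6 and ctrl 10 and 16, 22 and 14 in cold 7, cold 12 and cold 16, so it passed the count filter through the cold libraries alone. Of the 18 effector genes, 7 missed the count minimum in at least 1 ctrl library, Rab25 and Prss8 among them. Cldn4 was no longer called without ctrl 10 and cold 7 (3.29, adjusted p = 0.0575 by edgeR). The gene that fell was Jup, plakoglobin of desmosomes and adherens junctions, at -0.43 (SE 0.09, adjusted p = 0.0437 by edgeR), named after its value was seen. It stood at 443 to 473 CPM in the ctrl libraries and 307 to 369 CPM in the cold.

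The mesenchymal side of the circuit was nearly level. By edgeR none of 10 mesenchymal genes and factors was called (median -0.12; all 10 between -0.26 and -0.04), with an unadjusted p under 0.05 for 1, and DESeq2 called 0. Zeb1, a target of OVO-like repression, stood at 48.3, 42.4 and 52.6 CPM in ctrl 5, ctrl 6 and ctrl 10 and at 46.9, 44.6 and 36.7 CPM in cold 7, cold 12 and cold 16, with overlap. Snai2 stood at -0.23, Snai1 at -0.12 and Twist1 at -0.26 on the log2 scale, with adjusted p from 0.141 to 0.775 by edgeR for these 4 genes.

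The listed binding partners of the encoded proteins were mostly level. These lists leave out the claudin gene Cldn7 and the AP-2 genes, which were placed in the epithelial lists above. Named after its value was seen, Cldn7 stood at 3.51 on the log2 scale (adjusted p = 0.0701 by edgeR) with 3 counts in ctrl 10, and DESeq2 called it. The AP-2 gene Tfap2a stood at 0.77 (adjusted p = 0.411 by edgeR). Both had every cold library above every ctrl library. Tfap2b and Tfap2c fell below the filter. Of 11 genes for partners and cleavage of EPCAM none was called by edgeR (median -0.03; unadjusted p under 0.05 for 2) and DESeq2 called 0. Lef1, a nuclear partner of the cleaved EPCAM tail, stood at 1.07 (SE 0.30, adjusted p = 0.0969 by edgeR), the tetraspanin Cd9 at 0.29, Fhl2 at 0.33 and the gamma-secretase subunit Psen2 at 0.14. Of 10 receptors and kinases that bind GRB7, 1 was called. Erbb3 rose by 2.03 (SE 0.34, adjusted p = 0.0342 by edgeR), from 4.01, 2.10 and 3.29 CPM in ctrl 5, ctrl 6 and ctrl 10 to 8.14, 17.4 and 13.0 CPM in cold 7, cold 12 and cold 16. Egfr (-0.31), Ret (0.58) and Met (0.33) were not called by edgeR, whereas DESeq2 called Egfr and Ret too. None of 5 genes for partners of CITED4 was called by edgeR (median -0.04; unadjusted p under 0.05 for 1) and DESeq2 called 0, with Cebpb at 0.32, Hif1a at 0.12, Ep300 at -0.15 and Epas1 at -0.19 on the log2 scale.

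Marker lists of other cell types were set beside the 10 genes, whose summed level ran from 14.7 to 30.1 CPM in the ctrl and from 102 to 189 CPM in the cold libraries. Without Grhl1, which gave most of that sum in ctrl 6 and ctrl 10, the 9 others summed to 20.5, 4.11 and 2.77 CPM in ctrl 5, ctrl 6 and ctrl 10 and to 94.1, 182 and 169 CPM in cold 7, cold 12 and cold 16. Multiciliated cell markers had the same order, at 6.73 to 28.5 CPM in the ctrl and 59.2 to 172 CPM in the cold libraries, and 3 of 9 tested members rose, Tekt1 by 4.07 and Ccdc39 by 1.69 among them (adjusted p = 0.0226 and 0.0357 by edgeR). Of the 9, 6 missed the count minimum in at least 1 ctrl library, Tekt1 among them. Ccdc39 was no longer called once transcript length was entered as an offset (2.46, adjusted p = 0.0598 by edgeR). The absorptive duct list was mixed, with 5 of 10 genes overlapping between the groups. Its genes with the smallest p were Pax2 and Lrp2, whereas Atp6v0d2 stood at -0.48, Aqp1 at -0.15 and Cubn at 0.01 on the log2 scale. The epithelial transcription factor gene Pax2 stood at 0.578, 0 and 0 CPM in ctrl 5, ctrl 6 and ctrl 10 and at 3.81, 4.84 and 5.06 CPM in cold 7, cold 12 and cold 16, and the endocytic receptor gene Lrp2 at 2.50 to 11.1 CPM in the ctrl and 26.6 to 67.9 CPM in the cold libraries. None of the 8 tested genes of the list was called by edgeR (unadjusted p under 0.05 for 5) and 4 were by DESeq2. Without ctrl 5, Pax2 and Lrp2 passed the threshold (adjusted p = 0.0126 and 0.0423 by edgeR). In that fit Pax2 had 0 counts in ctrl 6 and ctrl 10, so it passed the count filter through its cold libraries alone. Of the 8 tested genes, 4 missed the count minimum in at least 1 ctrl library, Pax2 among them. The sum of the list (722 to 1109 CPM), most of it from the water channel gene Aqp1 (555 to 913 CPM), overlapped between the groups. The part of ciliated or duct cells in the values of the 10 genes was not tested.

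Other lists had another order over the libraries. Epcam was at 0.359 CPM in ctrl 10, the library with 182 CPM of seminal vesicle markers and none of the 7 at 0, and at 43.6 CPM in cold 16, where they summed to 1.19 CPM. Cold 7, with 186 CPM of epididymal principal cell markers, had the lowest Epcam of the cold group, whereas in cold 12 and cold 16 these markers summed to 0.669 and 1.50 CPM with 6 and 4 of 10 at 0. The 1 tested member of that list, Adam7, was at 29.6 CPM in cold 7 and at most 1.19 CPM elsewhere, and was called by neither edgeR nor DESeq2. None of the 4 tested spermatid markers was called by edgeR (unadjusted p under 0.05 for 3; DESeq2 called 1). All 6 listed markers summed to 45.0 CPM in cold 12 and 3.46 CPM in cold 16, in which Epcam was at 44.5 and 43.6 CPM. Mesothelial markers, of the lining of the fat pad, summed to 295 to 331 CPM in ctrl 5, ctrl 10 and cold 7 and to 96.7 to 127 CPM in ctrl 6, cold 12 and cold 16, with none of 8 genes called by edgeR or DESeq2 (median -0.59; unadjusted p under 0.05 for 0). Basal cell markers summed to 9.45 CPM in cold 7 and 3.08 to 5.55 CPM elsewhere, of which Trp63 gave 2.91 to 4.01 CPM, with 1 to 3 of 5 at 0 in every library. None of the 2 tested was called by edgeR or DESeq2, with 0 at an unadjusted p under 0.05. Endothelial, macrophage and stromal progenitor lists held no call by edgeR (unadjusted p under 0.05 for 3, 0 and 0 genes; DESeq2 called 1, 0 and 0), with medians of -0.22, -0.12 and 0.09. Of the 8 adipocyte markers, Lep, the leptin gene, rose by 0.61 (log2) and Cfd, adipsin, fell by 0.59 (adjusted p = 0.0439 and 0.0438 by edgeR). Neither was called without ctrl 5 (adjusted p = 0.0842 and 0.0943 by edgeR).

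**Figure D4:**
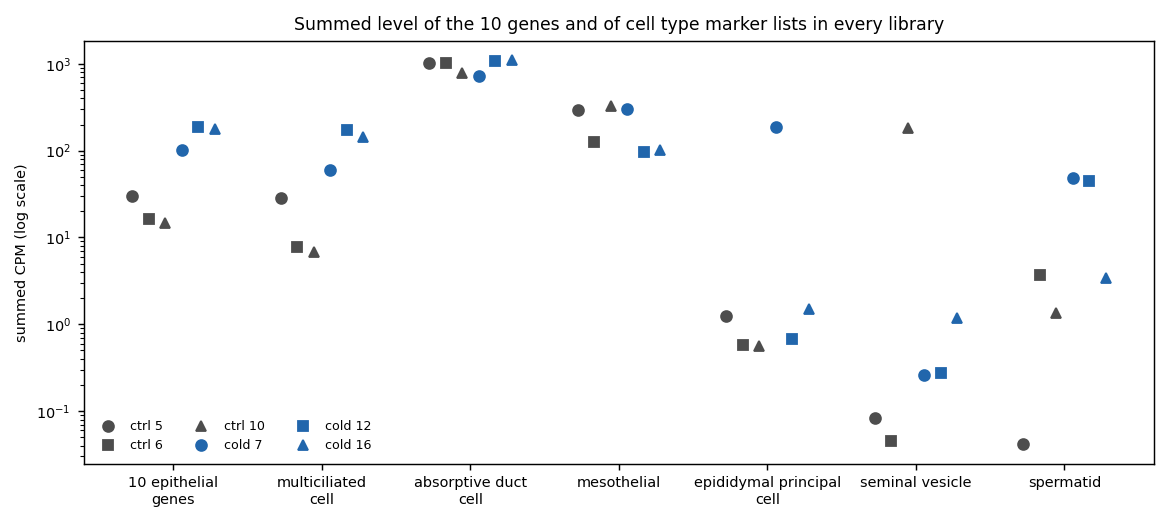
Points give, for each library, the summed CPM of the 10 genes and of 6 marker lists on a log axis (grey: ctrl, blue: cold). The 10 genes and the multiciliated list are ordered alike, whereas epididymal markers stand out in cold 7 at 186 CPM, seminal vesicle markers in ctrl 10 at 182 CPM and spermatid markers in cold 7 and cold 12.

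The genes next to the 10 were examined for reads that could reach across a gene boundary. None of 18 tested protein-coding neighbours was called by edgeR (unadjusted p under 0.05 for 6; DESeq2 called 1), and their log2 fold changes ran from -0.60 to 0.70 (median -0.09). Mien1, 7403 bases from Grb7, stood at 0.06, and Ikzf3, 9529 bases on its other side, at -0.30. Rnpep, 4144 bases from Elf3, stood at -0.17. The nearest to Prom2, Kcnip3 at 4379 bases, stood at 0.64 and the nearest to Grhl2, Ncald at 2606 bases, at 0.70. Klf11, beside Grhl1, stood at -0.60 with every cold library below every ctrl library, as in Grhl1, whereas Taf1b on the other side stood at 0.00. The libraries were strand-specific, but no source used here says how Salmon was told of the strand. Elf3, Grhl2, Ovol1 and Ovol2 overlap annotated antisense genes, so without the strand their reads cannot be told apart. The antisense gene at Ovol2, 1700108N11Rik, had 0 counts in the ctrl libraries and 12, 4 and 2 in cold 7, cold 12 and cold 16.

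The genes most like the set were ranked by Pearson's r to the mean standardised profile of its 8 tested members over 6 libraries, among 11760 genes whose mean reached 5 CPM. From that ranking the members themselves and genes with a predicted or clone name were left out. The first 8 that remained had r from 0.996 to 0.999. They were Ramp1, a coreceptor of the calcitonin family, the nicotinic receptor gene Chrna2, the phosphatase gene Cdc14b, E-cadherin (Cdh1), the gluconeogenic gene Fbp1, Prom1, Gipc2 and the radial spoke gene Rsph1 of motile cilia. Likeness of shape was not likeness of size: Cdh1 had a log2 fold change of 4.25 and Fbp1 of 4.79, against 0.84 for Ramp1 and 0.44 for Cdc14b. The values of r rest on 6 points that separate by group and are given with no p.

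The calls depended on which libraries were kept. Without ctrl 6, ctrl 10, cold 12 or cold 16, none of the 10 genes was called by edgeR, nor was any gene of the pathway lists, 12 of which were called with all libraries. Tekt1, Ccdc39, Lep and Cfd were not called in these fits either. Over all tested genes, these fits called 0, 0, 0 and 2 genes higher, so the loss of calls was not particular to the genes named here. The unadjusted p was under 0.05 for 3071, 2835, 2546 and 2746 of all tested genes in these fits. Leaving out ctrl 5 or cold 7 instead gave 695 and 1090 calls over all genes, against 516 with all libraries.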

How the data were processed

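Poly(A) RNA of 6 eWAT samples, 3 cold and 3 ctrl, was sequenced. The tools named in the submitters' processing notes are cutadapt, bcl2fastq and Salmon, with the build GRCm38, and no source used here gives their versions or settings. The authors deposited, per library, estimated counts, TPM and effective length (the scale for the length offset, in bases) of 140658 transcripts. The deposited estimated counts share reads among overlapping transcripts and need not be whole, and the deposited TPM is scaled for length and depth by the authors.

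Transcripts were joined to GENCODE M21 (139921 by versioned identifier, all of equal length, 140137 in all). The remaining 521, with 0.124 to 0.394% of counts, were left out. Counts were summed per gene, rounded, filtered with filterByExpr (minimum count 10), TMM-scaled and tested with edgeR 4.0.16 (glmQLFit, robust; glmQLFTest; two-sided, no covariate) in R 4.3.3, with Benjamini-Hochberg adjustment over 17852 genes and calls at 0.05. SEs were derived from the F statistic. An exact permutation test of 3 against 3 cannot go below 0.1. The mouse numbers in the labels mark separate animals. Within groups, counts of any 2 libraries differed by more than counting error (chi-square over df of 12.2 or more). The fit was tested on simulated data.

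The genes, lists and alternatives were chosen with earlier results of these data known. Named, apart from a few genes not reported here, are all 10 genes and their 16 paralogues, up to 4 genes with the smallest p per pathway list and 2 per cell type list, the 8 most similar genes and adjacent protein-coding genes. Sequences are from RefSeq (GRCm38.p6). Alternatives were RLE factors, total counts, no filter, a length offset, DESeq2 1.42.0 and leaving out libraries. The pair ctrl 10 and cold 7 was left out as an alternative chosen after seeing the data.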

Additional observations from a re-analysis of the deposited data

How the results depend on the processing

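No paired analysis was possible because the mouse numbers differ between the groups. All log2 fold changes of the 8 tested genes kept their sign under every alternative. With each library left out in turn, their median ran from 3.13 to 4.92, Epcam from 3.46 to 5.87, Prom2 from 4.44 to 6.65, Elf3 from 3.51 to 6.50, Ehf from 3.21 to 5.83, Cited4 from 2.98 to 4.02, Grb7 from 2.81 to 3.95, Grhl2 from 2.51 to 3.08 and Grhl1 from -0.68 to -0.51, the largest positive values being those without ctrl 5. Without ctrl 5 and cold 7 together, the median was 5.20, Epcam 6.15, Prom2 6.79, Elf3 6.85, Ehf 6.11, Cited4 4.28, Grb7 4.24 and Grhl2 3.08. Without ctrl 10 and cold 7, an alternative chosen after seeing the data, Grhl2 was at 2.51. Calls among the 10 genes, from which nothing is read, numbered 4 (2.32% of all tested genes called higher). They numbered 0 to 7 with 1 library left out (7 without ctrl 5, against 3.50% of all, and 3 without cold 7, against 5.03%). Without ctrl 10 and cold 7 they numbered 2 (Grhl2 and Cited4, against 3.65%). Without ctrl 5 and cold 7 there were 8, of which 7 were higher (against 6.31%) and Grhl1 lower. DESeq2 also gave 8, with 7 higher (against 5.15%) and Grhl1 lower. These shares count genes called higher only. In either direction, 1230 of 18154 genes were called without ctrl 5 and cold 7 and 1430 of 21979 by DESeq2. Calls among the other pathway genes numbered 12, with 0 to 18 over single libraries left out, 24 without ctrl 5 and cold 7 and 24 by DESeq2. Over all genes, 516 were called, with 0 to 1090 over single libraries left out, 1230 without ctrl 5 and cold 7, 924 with no low-count filter and 1430 by DESeq2. With no filter, 3 of the 10 genes were called: Grhl2 and Ovol2 higher and Grhl1 lower (696 of all 34880 called higher and 924 in either direction). The cause of these changes was not tested. Over the 9 genes with more than 1 transcript, the median share of the leading transcript was 78.5% of counts and 71.4% of TPM. With at most 16 counts in a library, Ovol1, Ovol2 and the ctrl values of Grhl2 are limited by depth.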
